A study of Mus musculus with 7 samples.

Results

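The transcripts described here are those of the enzymes that methylate histone H3 at lysine 9 (H3K9) and of proteins that bind the enzyme pair G9a and GLP, in mouse C2C12 myoblasts given siRNA against either enzyme. The list held 10 genes, taken by symbol from the platform annotation with the brightest probe set of each gene that carried a single symbol: Ehmt1, Ehmt2, Suv39h1, Suv39h2, Setdb1, Setdb2, Wiz, Zfp644, Cdyl and Prdm2. Of these 10 genes, 7 had such a probe set, among 22180 genes in all. Zfp644 had only a probe set shared with another gene, and no probe set carried the symbol or gene number of Suv39h1 or Suv39h2 in the annotation used, so these 3 genes were not analysed here.

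C2C12 is an established line of mouse skeletal myoblasts that grows in serum and can fuse into myotubes. All samples were C2C12 cells in medium with fetal bovine serum, transfected either with control siRNA (labelled Control, 2 arrays), with siRNA against G9a (siG9a, 3 arrays) or with siRNA against GLP (siGLP, 2 arrays). One single-colour Affymetrix array was run per sample, and its values are log2 signals, so a difference of 1 is a doubling. The labels give the siRNA as the only difference between groups and do not say whether replicates came from separate cultures. The p-values therefore speak of the spread among these arrays, and that spread may be technical. A change in such bulk RNA cannot tell fewer cells of a kind from less RNA per cell.

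G9a, encoded by Ehmt2, and GLP, encoded by Ehmt1, are SET-domain enzymes that work as a heterodimer and place mono- and dimethylation on H3K9 in euchromatin, where the mark is linked to gene silencing. Trimethylation is mainly the work of the Suv39h enzymes, in pericentric heterochromatin, and of Setdb1, which acts with the corepressor Trim28 on retroelements and many genes. G9a and GLP reach their targets through partners such as the zinc finger proteins Wiz and Zfp644 and the chromodomain corepressor Cdyl. In myoblasts G9a is also known to methylate the muscle regulator MyoD.

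Over the 7 arrays the median signal of all probe sets lay between 4.54 and 4.59 and the lower quartile between 3.32 and 3.36, and all 7 measured genes had a mean above that median. The myoblast markers (8 of 8 measured, Myod1, Myf5, Des, Cdh15, Itga7, Ncam1, Pax7 and Vcam1) had means above the lower quartile, from 5.26 to 10.9. Above it too lay 3 of 3 endothelial, 3 of 4 leukocyte, 2 of 3 adipocyte and 2 of 3 epithelial genes. That level alone therefore does not set the myoblast markers apart. The log2 signals of the 8 myoblast markers summed to 65.7 to 65.8 in control, 63.0 to 64.3 in siG9a and 64.1 to 64.4 in siGLP. Myod1, the master regulator of the lineage, had means of 7.63, 6.95 and 7.63 in that order, and the cadherin gene Cdh15 of 7.72, 7.21 and 7.21. Des, Ncam1, Pax7 and Vcam1 also had lower means in both knockdowns than in control. Myf5, with means of 8.80, 8.92 and 8.57, was higher in siG9a, and Itga7, with 8.51, 8.32 and 8.58, was higher in siGLP. Of the markers of other cell types, 3 adipocyte genes summed to 11.1 to 11.2 in control, 11.6 to 12.1 in siG9a and 12.3 to 14.4 in siGLP, with Fabp4, a fatty acid binding protein gene, at means of 3.33, 3.76 and 5.36 (SD 1.36 in siGLP). The 4 leukocyte genes summed to 17.5 to 17.8, 18.4 to 18.6 and 18.1 to 18.5 in the same order, with the lysosomal gene Cd68 at means of 7.14, 7.76 and 7.68, while the defining gene Ptprc stayed below the lower quartile with group means from 2.79 to 2.89. The 3 endothelial genes summed to 12.8 to 12.9, 12.6 to 13.1 and 12.6 to 13.3, and the 3 epithelial genes to 11.6 to 11.8, 11.3 to 12.0 and 11.9 to 12.0. The part of these shifts in the results that follow was not tested.

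Ehmt2 fell in siG9a, Ehmt1 had its lowest values in siGLP without passing the test, and in each knockdown the partner enzyme's transcript was near the control level. Ehmt2 had log2 signals of 7.56 and 7.46 in the control arrays, 6.31, 6.14 and 5.99 in the siG9a arrays and 7.37 in each siGLP array. All 3 siG9a arrays thus lay far below the other 4, and the lowest of those 4 was still more than 1 log2 unit above the highest siG9a array. As a share of the control mean, Ehmt2 stood at 43.5%, 38.5% and 34.8% in siG9a 1, 2 and 3. The fall was 2.58-fold (log2 difference -1.37, SE 0.10; limma over all genes, Benjamini-Hochberg adjusted p = 0.0308), with a 95% interval for the remaining signal of 32.9% to 45.7%. Ehmt2 was 1 of the 7 measured genes past the threshold of adjusted p under 0.05 in this comparison, against 0.0271% of all genes. Its call was lost without any single array, siGLP arrays included, with log2 differences from -1.45 to -1.29 and limma adjusted p from 0.0787 to 0.426, and also with the siGLP arrays left out of the fit (adjusted p = 0.13).

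**Figure D1:**
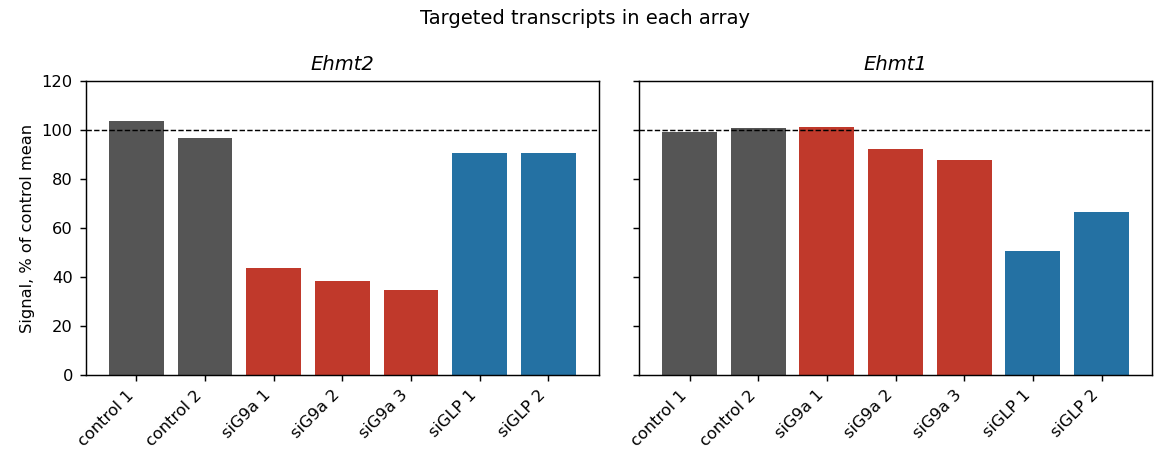
Signal of Ehmt2 (left) and Ehmt1 (right) in each of the 7 arrays, as a percent of the mean control signal, which is the dashed line at 100%. Ehmt2 stood between 34.8% and 43.5% in the 3 siG9a arrays, and Ehmt1 at 50.6% and 66.5% in the 2 siGLP arrays.

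Ehmt1 was lowest in siGLP, with uneven values. Its log2 signal was 6.71 and 6.73 in control, 6.74, 6.60 and 6.53 in siG9a, and 5.73 and 6.13 in siGLP. The siGLP arrays were the lowest of the 7, and they differed from each other by more than the arrays of any other group, with SDs of 0.28 (n = 2) in siGLP, 0.11 (n = 3) in siG9a and 0.013 (n = 2) in control. In percent of the control mean the siGLP arrays stood at 50.6% and 66.5%. The log2 difference from control was -0.79 (SE 0.14; 95% interval for the remaining signal 46.4% to 72.5%), and this did not reach the threshold (adjusted p = 0.197 by limma; unadjusted p = 0.0007). Thus 0 of the 7 measured genes passed in siGLP by limma, against 0.00451% of all genes, and 1 of 7 was lower at an unadjusted p under 0.05, against 4.13% of all genes. Without siGLP 1 the difference was -0.59 and without siGLP 2 it was -0.98. The interval for Ehmt1 in siGLP did not overlap that for Ehmt2 in siG9a, but the probe sets differ and the 2 differences were not tested against each other.

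Neither enzyme's transcript had a higher mean under the siRNA against its partner. In siGLP both Ehmt2 arrays stood at 90.7% and 90.6% of the control mean, below both control arrays, a log2 difference of -0.14 with a 95% interval of -0.40 to 0.12 (limma, Benjamini-Hochberg adjusted p = 0.789). In siG9a the Ehmt1 arrays stood at 101.4%, 92.4% and 87.8%, a difference of -0.09 with an interval of -0.39 to 0.20 (adjusted p = 0.826), and they overlapped the control arrays. These intervals hold a fall of either partner to 75.7% and 76.5% of control, and a rise to no more than 109% for Ehmt2 and 115% for Ehmt1.

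The knockdowns were also set directly against each other. Ehmt2 was 2.34-fold higher in siGLP than in siG9a (log2 difference 1.22, SE 0.10; adjusted p = 0.0277 by limma) and was the 1 measured gene of 7 that passed, against 0.234% of all genes. Ehmt1 stood at -0.69 in siGLP relative to siG9a (SE 0.12), with no overlap of arrays, and did not pass (adjusted p = 0.0931). Ehmt1 did pass when dim genes, those under the median level, were dropped (limma adjusted p = 0.0335) and with trended, robust variance moderation (adjusted p = 0.0454). The call for Ehmt2 was lost without any single array (log2 difference 1.15 to 1.31; adjusted p 0.0692 to 0.224) and without the control arrays in the fit (adjusted p = 0.157).

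**Figure D2:**
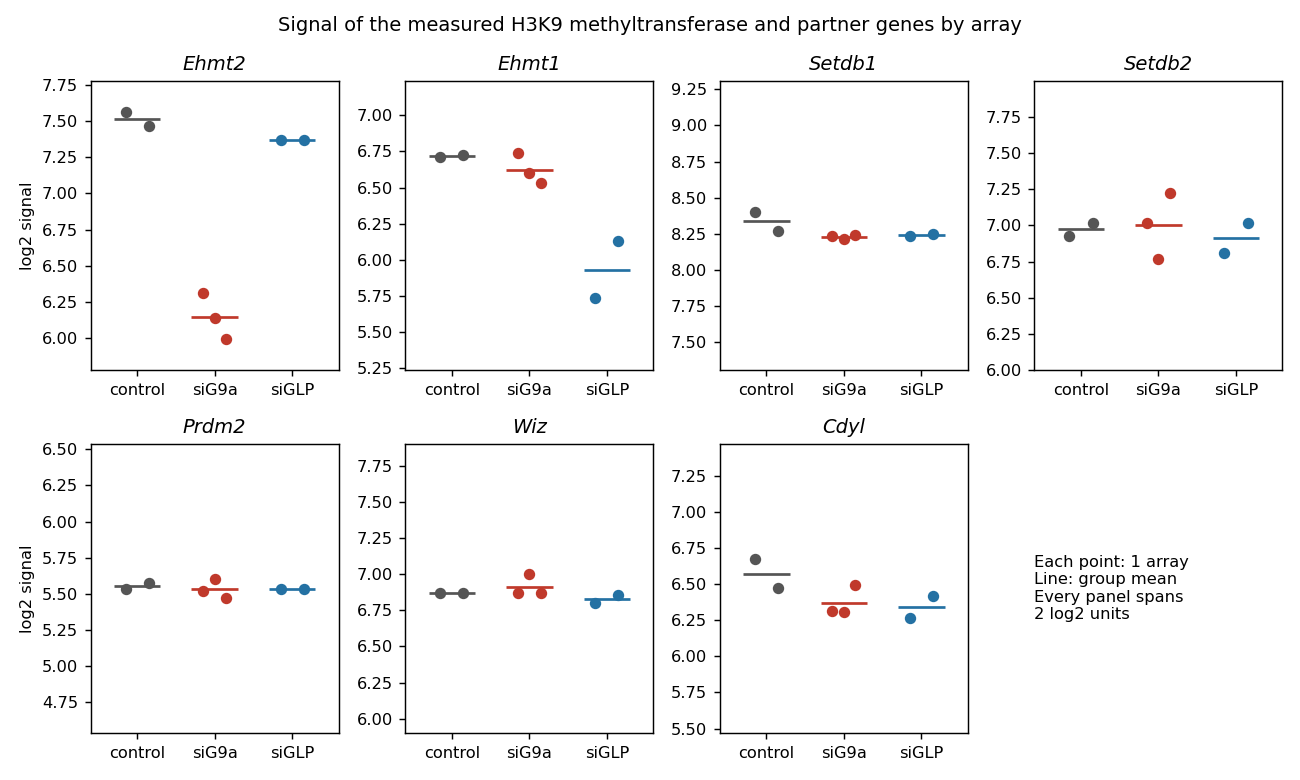
Log2 signal of the 7 measured genes by group, with 1 point per array and a line at each group mean, every panel spanning 2 log2 units. Ehmt2 in siG9a and Ehmt1 in siGLP stand apart, while each of the other 5 genes varied by 0.13 to 0.46 over all 7 arrays.

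Setdb1, Setdb2 and Prdm2, the remaining measured genes of H3K9 methyltransferases, varied by 0.13 to 0.46 log2 units over the 7 arrays. Setdb1, which trimethylates H3K9, had log2 signals of 8.40 and 8.27 in control, 8.23, 8.21 and 8.24 in siG9a, and 8.23 and 8.25 in siGLP. All 5 knockdown arrays lay below both control arrays, although the gap to the lower control array was small beside the gap between the control arrays. The differences were -0.11 in siG9a (95% interval -0.26 to 0.05) and -0.10 in siGLP (-0.26 to 0.07), with limma Benjamini-Hochberg adjusted p of 0.622 and 0.777. Both comparisons use the same control arrays. Setdb1 and Ehmt2 were the 2 of 7 measured genes whose siG9a arrays all lay below control, against 11.7% of all genes.

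Setdb2, a relative of Setdb1, was the most variable of the 5 other genes. Its log2 signals were 6.93 and 7.02 in control, 7.02, 6.77 and 7.23 in siG9a, and 6.81 and 7.02 in siGLP. The siG9a arrays included both the lowest and the highest value of the 7. Its differences were 0.03 in siG9a (95% interval -0.29 to 0.36) and -0.06 in siGLP (-0.42 to 0.30), with limma adjusted p of 0.962 and 0.952, and their sign turned on single arrays.

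Prdm2, also called RIZ1, which carries a PR domain related to the SET domain, was the least variable, with a range of 0.13 over the 7 arrays. Its log2 signals were 5.53 and 5.58 in control, 5.52, 5.60 and 5.47 in siG9a, and 5.53 in each siGLP array. All groups overlapped or touched. The differences were -0.02 in siG9a (95% interval -0.18 to 0.13) and -0.02 in siGLP (-0.19 to 0.15), with limma adjusted p of 0.929 and 0.965.

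Wiz, the zinc finger protein that holds the G9a and GLP heterodimer together, showed little difference on its brighter probe set. The log2 signal was 6.87 in each control array, 6.87, 7.003 and 6.87 in siG9a, and 6.80 and 6.86 in siGLP. The siGLP arrays were the lowest, by less than 0.1. The differences were 0.04 in siG9a (95% interval -0.12 to 0.21) and -0.04 in siGLP (-0.22 to 0.13), with limma adjusted p of 0.864 and 0.919. The gene's dimmer probe set gave 0.11 in siG9a and 0.05 in siGLP, so the probe sets disagreed on the sign in siGLP, and the mean of both gave 0.0010.

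Cdyl, which reads methylated H3K9 and links the repressor REST to G9a, had the largest differences among the 5 genes that were not targeted. Its log2 signals were 6.67 and 6.47 in control, 6.31, 6.30 and 6.49 in siG9a, and 6.27 and 6.42 in siGLP. Both siGLP arrays and 2 of the 3 siG9a arrays lay below both control arrays, with siG9a 3 above the lower control array. Cdyl stood at 87.0% of control in siG9a (log2 difference -0.20, 95% interval -0.43 to 0.03) and 85.2% in siGLP (-0.23, -0.49 to 0.02), with limma Benjamini-Hochberg adjusted p of 0.536 and 0.63. Without control 1 these differences were -0.10 and -0.13, and without control 2 they were -0.30 and -0.33.

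**Figure D3:**
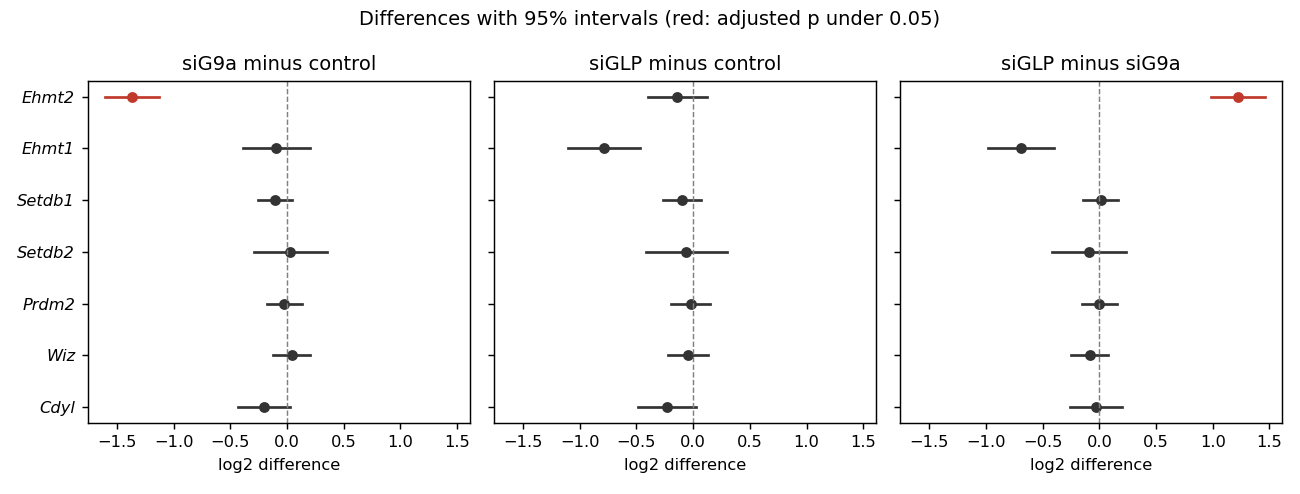
Log2 differences of the 7 measured genes with 95% limma intervals, not adjusted for the number of genes, for each siRNA against control and, on the right, for siGLP against siG9a. Red marks an adjusted p under 0.05, reached by Ehmt2 in the left and right panels, and the intervals of Ehmt1 in the middle and right panels also leave out 0.

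For the 5 genes other than the targets, the intervals against control ran from 71.4% (Cdyl in siGLP) to 128% (Setdb2 in siG9a) of the control level. In siG9a 3 of these 5 lay below control, the median log2 difference being -0.02, and in siGLP 5 of 5 lay below, with a median of -0.06. The medians over all genes tested were 0.0052 and 0.0015, with 48.0% and 49.2% of genes below control. The siGLP arrays of Ehmt1, Ehmt2, Setdb1, Wiz and Cdyl, 5 of 7 measured genes, all lay below both control arrays, against 16.9% of all genes. Apart from Ehmt1, none of these differences passed even an unadjusted p under 0.05, and for Wiz and Setdb1 they were under 0.1 on the log2 scale. Between the knockdowns the 5 genes differed by -0.09 to 0.01.

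Repeated values affected some of these spreads. Prdm2, Setdb2 and Wiz each had exactly the same value on 3 of the 7 arrays, and Setdb1 on 2, as was the case on 3 or more arrays for 21.4% of all genes. The SD of 0 for Wiz in control and for Prdm2 in siGLP comes from such ties. Ehmt1, Ehmt2 and Cdyl had 7 distinct values each.

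The genes whose array values followed the targets most closely were found by subtracting each gene's own mean over the 7 arrays and taking the root mean square difference from the target. For Ehmt2 these were Tead2, whose product binds DNA at the end of the Hippo pathway (0.12 on the log2 scale, against a median of 0.66 over all genes), Smim11, which encodes a small membrane protein (0.18), and Tomm7, a subunit of the mitochondrial import complex (0.20). Smim11 signals were 7.99 and 8.03 in control, 7.12, 7.18 and 6.69 in siG9a, and 8.04 and 8.16 in siGLP, so it too was low in all 3 siG9a arrays and no others. Tomm7 signals were 7.55 and 7.39 in control, 6.65, 6.68 and 6.31 in siG9a, and 7.49 and 7.50 in siGLP. All 3 genes were lowest in siG9a 3, the array with the least Ehmt2. The order of siG9a 1 and siG9a 2 differed, since Ehmt2 was lower in siG9a 2 and the 3 genes were lower in siG9a 1. For Ehmt1 the closest were Chrng, the fetal acetylcholine receptor subunit gene (0.064, against a median of 0.37), Mboat1, a membrane-bound acyltransferase gene (0.091), and Vcl, which encodes the adhesion protein vinculin (0.11). Chrng signals were 6.51 and 6.47 in control, 6.51, 6.38 and 6.20 in siG9a, and 5.53 and 5.75 in siGLP. Mboat1 and Vcl were also lower in siGLP 1 than in siGLP 2, as was Ehmt1. These likenesses are over 7 arrays in 3 groups and were picked from all genes, so they are a description and carry no test.

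**Figure D4:**
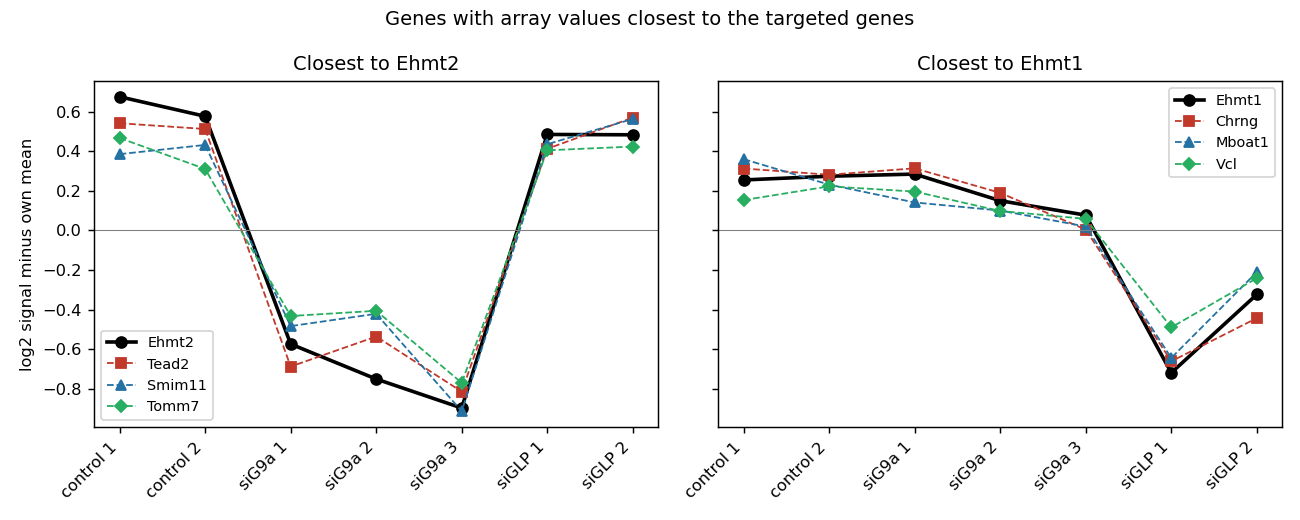
Log2 signal minus each gene's own mean over the 7 arrays, for Ehmt2 (left) and Ehmt1 (right) in black and for the 3 genes closest to each in colour. The genes closest to Ehmt2 are low in the 3 siG9a arrays, and those closest to Ehmt1 are low in the 2 siGLP arrays, with siGLP 1 the lower.

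Further recruiters and binders of G9a and GLP were examined as the wider pathway. Of 19 measured genes, 0 passed over all genes by limma in either knockdown, while 2 were lower and 0 higher at an unadjusted p under 0.05 in siG9a and 1 lower and 0 higher in siGLP. Of all genes, 4.57% were lower and 5.95% higher at that level in siG9a, and 4.13% lower and 4.51% higher in siGLP. In siG9a 11 of 19 lay below control (median -0.02), and in siGLP 14 of 19 (median -0.04). The smallest p-values in siG9a belonged to Uhrf1, a factor that guides maintenance DNA methylation (-0.26), the repressor gene Prdm1 (-0.33) and the zinc finger gene Zfp518a (0.27), with adjusted p from 0.342 to 0.527. In siGLP they belonged to Mecom (-0.26), Prdm4 (-0.11) and Prdm6 (-0.12), with adjusted p from 0.559 to 0.785. Prdm1 had mean signals of 3.36 to 3.70, near the lower quartile of the arrays.

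The genes of proteins that read or erase H3K9 methylation, listed with associated factors such as Trim28, Daxx and Mbd1, gave larger single differences. Of 19 measured genes, 0 passed over all genes by limma in either knockdown. At an unadjusted p under 0.05, 2 were higher and 2 lower in siG9a, and 1 higher and 1 lower in siGLP. The shares over all genes were 5.95% higher and 4.57% lower in siG9a, and 4.51% higher and 4.13% lower in siGLP. The median was 0.02 in siG9a, with 8 of 19 below control, and -0.04 in siGLP, with 12 of 19 below. Kdm7a, a demethylase of H3K9 and H3K27, had log2 signals of 5.83 and 5.95 in control, 6.76, 6.30 and 6.54 in siG9a, and 6.46 and 6.23 in siGLP. All 5 knockdown arrays lay above both control arrays, but the gene was named for its small p on these same values. The differences were 0.64 in siG9a (SE 0.14; limma adjusted p = 0.189) and 0.45 in siGLP (SE 0.16; adjusted p = 0.475). In siG9a the next smallest p-values after Kdm7a belonged to Phf8, another demethylase (0.18), and Cbx3, the heterochromatin protein HP1 gamma (-0.19). In siGLP the smallest p belonged to the histone chaperone gene Daxx (-0.32), ahead of Kdm7a and then the demethylase gene Kdm3b (-0.12). These 4 genes other than Kdm7a did not pass, with adjusted p from 0.37 to 0.724.

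Methyltransferases for other histone lysines were set beside the H3K9 enzymes, in a list that also held Setd3, an actin histidine methyltransferase gene. Of 22 measured genes, 0 passed over all genes by limma in either knockdown. At an unadjusted p under 0.05, 1 was higher and 1 lower in siG9a, and 1 higher and 2 lower in siGLP. The shares over all genes were 5.95% higher and 4.57% lower in siG9a, and 4.51% higher and 4.13% lower in siGLP. In siG9a 16 of 22 lay below control (median -0.03), and in siGLP 15 of 22 (median -0.04). Ezh1, which methylates H3K27 within the Polycomb repressive complex, had log2 signals of 6.21 and 6.24 in control, 6.77, 6.57 and 6.77 in siG9a, and 6.74 and 6.53 in siGLP. Every knockdown array of Ezh1 thus lay above both control arrays, though Ezh1 was likewise named for its small p on these values. The differences were 0.48 in siG9a (SE 0.094; limma adjusted p = 0.157) and 0.41 in siGLP (SE 0.10; adjusted p = 0.321), and the comparisons share their control arrays. Its relative Ezh2 stood at -0.17 and the H3K36 enzyme gene Setd2 at -0.18 in siG9a (adjusted p = 0.407 and 0.476). In siGLP the actin histidine methyltransferase gene Setd3 stood at -0.23 and the H3K79 enzyme gene Dot1l at -0.35 (adjusted p = 0.403 and 0.516).

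Germline genes were also examined, most of them of the Magea family on the X chromosome, of the kind that G9a and GLP silence in mouse embryonic stem cells. Of 10 measured genes, 0 passed over all genes by limma in either knockdown, and 3 were higher and 0 lower at an unadjusted p under 0.05 in each. Over all genes, 5.95% were higher and 4.57% lower at that level in siG9a, and 4.51% higher and 4.13% lower in siGLP. In siG9a 6 of 10 lay above control (median 0.05), and in siGLP 7 of 10 (median 0.18). Magea8 signals were 4.004 and 4.32 in control, 5.11, 4.80 and 4.74 in siG9a, and 4.79 and 4.41 in siGLP. The knockdown arrays of Magea8 were all above the control arrays, most clearly in siG9a. The differences were 0.72 in siG9a (SE 0.17; limma adjusted p = 0.205) and 0.44 in siGLP (SE 0.18; adjusted p = 0.567). Magea1 stood at 0.41 and 0.60 and Magea3 at 0.51 and 0.45 in siG9a and siGLP, with adjusted p from 0.289 to 0.564. Magea3 was under the lower quartile of the arrays in every group (means of 2.37 in control, 2.88 in siG9a and 2.82 in siGLP), as was Magea1 in control (2.88) and siG9a (3.29) but not in siGLP (3.48). A signal above background is therefore not shown on either side of the Magea3 differences or of the Magea1 difference in siG9a. For the Magea1 difference in siGLP it is not shown in control. Nor is it shown for Magea1 in siGLP, whose mean lay below the array medians and below the lowest endothelial marker mean of 4.11. For Magea8, both control arrays and siGLP 2 lay below the array medians and below the highest endothelial marker mean of 4.52. Its siG9a arrays and siGLP 1 lay above those medians. These levels do not establish that Magea8 was detected in control or in siGLP 2. Near-identical Magea copies may share probes.

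**Figure D5:**
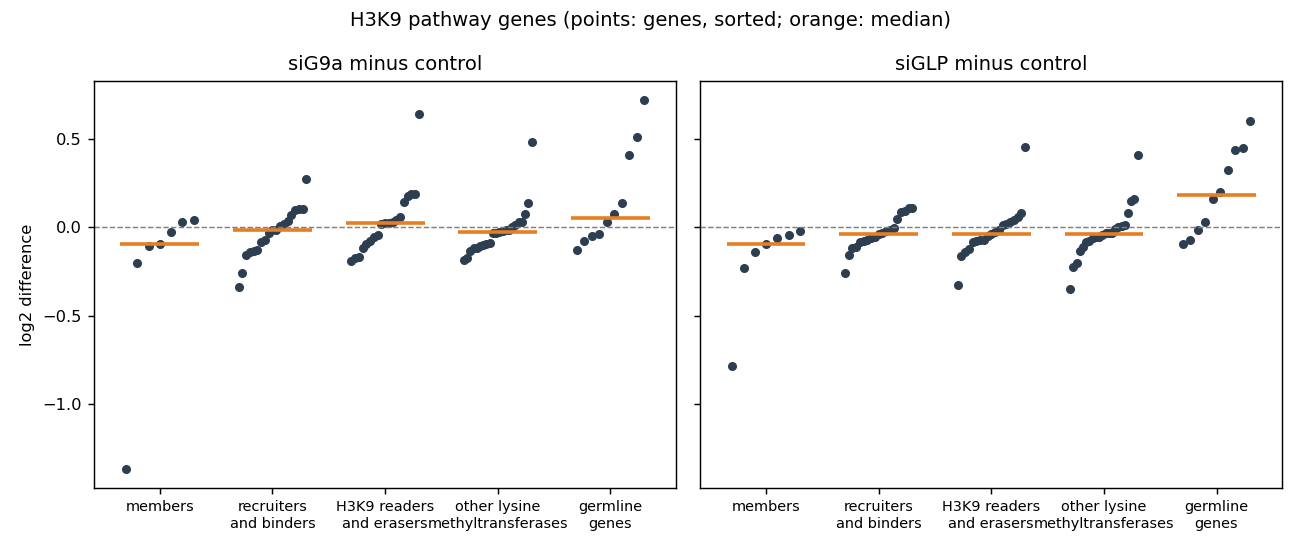
Log2 differences from control in siG9a (left) and siGLP (right) for the 7 measured genes and for 4 other lists. These hold recruiters and binders of G9a and GLP, H3K9 readers and erasers, methyltransferases for other lysines, and germline genes. Each gene is 1 point, in rising order, with an orange line at each median. Ehmt2 (left) and Ehmt1 (right) are the lowest points. The highest points are Zfp518a (left) and Prdm16 (right) among recruiters and binders, Kdm7a among readers and erasers, Ezh1 among the other methyltransferases, and Magea8 (left) and Magea1 (right) among the germline genes.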

How the data were processed

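The authors deposited log2 signals of each probe set on 7 arrays. RMA and Partek are named, with no version, by the submitters' processing notes. RMA subtracts background, aligns arrays to each other and merges probes, which compresses differences of dim probe sets. The log2 scale was taken from the range of the values, and no scan date, genome build or batch is given in the sources used here. Of 33649 probe sets, 23521 had 1 symbol, and current symbols came from RefSeq (GRCm38.p6) by gene number. The probe set with the highest mean was kept for each of 22180 genes. Groups were compared in limma 3.58.1 (R 4.3.3) (lmFit and eBayes, 1 mean per group, all 7 arrays, 4 residual degrees of freedom, two-sided), with Benjamini-Hochberg adjustment over all genes and a threshold of 0.05. Intervals are limma's, at 95%. The script was tested on simulated data. Named were all listed genes, the 3 genes closest to each target, and from each list up to 3 genes with the smallest p per knockdown. Cell type markers were described without a test. The listed genes and the further lists were chosen with earlier results of these data known. The number of arrays limits the precision.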

Additional observations from a re-analysis of the deposited data

How the results depend on the processing

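Refits left out each array in turn, used the replicate number as a block, dropped genes under the median level, added cyclic loess or quantile normalization, used trended and robust variance moderation, kept only the 2 groups compared, or averaged probe sets. Where an arm was left with 1 array, it was assumed to vary like the other groups. Ehmt2 stayed lower in siG9a in all 14, but its call was lost without any single array (-1.45 to -1.29), with the replicate block (-1.29) and with only the 2 groups compared (-1.37), so that the count of measured listed genes that passed fell from 1 to 0 there. Ehmt1 stayed lower in siGLP in all 14 (-0.98 to -0.59; limma adjusted p 0.0782 to 0.595) and passed in none. For siGLP minus siG9a the count of listed genes fell from 1 to 0 without any single array, with the block (Ehmt2 at 1.15) and with only the 2 groups compared, and was 2 without genes under the median level and with trended moderation. Over all genes the counts were 6 in siG9a, 1 in siGLP and 52 between knockdowns. They became 148, 21 and 350 without genes under the median level and 100, 23 and 304 with trended moderation, and the siG9a count was 16 after quantile normalization. All 3 were 0 with the block and with only the 2 groups compared. Without a single array they were 0, except that 1 gene passed in siGLP without siG9a 1.

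Differences close to 0 changed sign under some settings, and none of them passed in any. Without single arrays, Cdyl between knockdowns ran from -0.10 to 0.046, Prdm2 from -0.059 to 0.0064 in siG9a and from -0.028 to 0.037 between knockdowns, Setdb2 from -0.079 to 0.15 in siG9a, from -0.16 to 0.044 in siGLP and from -0.21 to 0.020 between knockdowns, and Wiz from -0.0025 to 0.066 in siG9a. With the replicate block, Cdyl between knockdowns was 0.032, Prdm2 was 0.0064 in siG9a and -0.028 between knockdowns, and Setdb2 was -0.079 in siG9a and 0.020 between knockdowns. After quantile normalization Prdm2 between knockdowns was -0.015, and with probe sets averaged Wiz in siGLP was 0.0010. The cause of these changes was not tested. Deviations of same-numbered arrays from their group means correlated across genes at 0.0047 to 0.17, all positive. Those of differently numbered arrays ran from -0.17 to 0.15, but in a group of 2 arrays the deviations are opposite by construction. The numbers were not taken as pairs in the main fit, and whether same-numbered arrays share an effect was not tested. The block in effect leaves out siG9a 3.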
